A study of Mus musculus with 9 samples.

Results

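Mouse primary calvarial pre-osteoblasts that received the Ad-Hif2a vector were compared directly with cells that received the Ad-Hif1a vector, to ask which transcripts differ with the HIF-α isoform that is overexpressed. The comparison takes 6 of the 9 RNA-seq libraries of the series, 3 per vector, and the 3 Ad-C (control adenovirus) libraries entered the fit and give the background level. Each count file held 40213 gene symbols, of which 14413 had enough counts to be tested. All 9 libraries came from wild-type cells, isolated from the skull bones of 3-day-old pups, and the labels give day 6 of differentiation in osteogenic medium with 50 μg/ml L-ascorbic acid and 5 mM β-glycerophosphate. The control cells were cultured in the same way and also carried an adenovirus, which was added on day 3. The cultures were kept under normoxia, so the vectors acted without low oxygen. These libraries measure RNA and not HIF-α protein. The sources give neither the dose of virus used for these libraries nor whether the vectors carry mouse sequence, so the counts on Hif1a and Epas1 can hold transcripts of the vector and of the cell's own gene. The study's methods define n as independent experiments or mice, but the labels do not say whether these libraries came from separate pools of pups or cultures, so p-values are read as measuring the spread between the libraries.

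Hypoxia-inducible factors are dimers of an oxygen-sensitive α subunit and the stable partner ARNT. In oxygen, prolyl hydroxylases of the EGLN family mark the α subunit, VHL binds it, and it is degraded. HIF-1α (gene Hif1a) and HIF-2α (gene Epas1) bind the same short core, RCGTG, in the hypoxia response elements of their targets, and share many targets. Glycolytic enzymes are usually described as targets of HIF-1α, and erythropoietin, arginase and several proteases as targets of HIF-2α. In bone, both isoforms act in osteoblasts, which form bone and, through RANKL (Tnfsf11) and its decoy receptor OPG (Tnfrsf11b), also control the formation of osteoclasts.

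The 250 bases before the start site are shown for Egln3 and Pgf, the pair of genes with the lowest p, and for Car9 and Pdk1, a pair of hypoxia-induced genes whose levels were lower in Ad-Hif2a cells than in Ad-Hif1a cells. The sequences are those of RefSeq for GRCm38.p6, written 5′ to 3′ on the strand of the gene. Capitals mark the core, searched as ACGTG and GCGTG on both strands, so that a core on the other strand reads CACGT or CACGC, and CACGTG would count on both.
Egln3, chr12:54203875-54204124, minus strand: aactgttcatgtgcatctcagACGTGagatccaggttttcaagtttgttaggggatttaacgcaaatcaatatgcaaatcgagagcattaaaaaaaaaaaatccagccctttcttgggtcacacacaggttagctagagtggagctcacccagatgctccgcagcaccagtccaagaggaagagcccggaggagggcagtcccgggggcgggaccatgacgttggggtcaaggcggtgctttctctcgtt
Pgf, chr12:85177314-85177563, minus strand: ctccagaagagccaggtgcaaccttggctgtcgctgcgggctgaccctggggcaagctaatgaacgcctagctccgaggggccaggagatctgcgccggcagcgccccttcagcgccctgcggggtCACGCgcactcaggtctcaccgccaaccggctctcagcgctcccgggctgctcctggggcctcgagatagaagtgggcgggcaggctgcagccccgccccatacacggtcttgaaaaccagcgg
Car9, chr4:43506776-43507025, plus strand: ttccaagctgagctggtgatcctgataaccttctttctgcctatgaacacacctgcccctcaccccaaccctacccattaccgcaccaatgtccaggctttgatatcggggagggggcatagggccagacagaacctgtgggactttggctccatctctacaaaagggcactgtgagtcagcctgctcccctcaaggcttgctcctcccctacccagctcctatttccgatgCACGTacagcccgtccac
Pdk1, chr2:71872974-71873223, plus strand: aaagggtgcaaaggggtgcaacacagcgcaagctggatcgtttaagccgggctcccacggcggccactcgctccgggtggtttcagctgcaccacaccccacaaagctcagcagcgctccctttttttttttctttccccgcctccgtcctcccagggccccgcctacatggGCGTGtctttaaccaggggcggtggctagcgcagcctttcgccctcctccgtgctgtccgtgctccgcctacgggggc
Each of these windows held 1 core, which began 229 bases before the start in Egln3, 124 in Pgf, 18 in Car9 and 78 in Pdk1. Pgf and Pdk1 each have a further annotated start whose window held none. Of the 32851 mouse promoter windows of this length, 38.6% held a core, so these letters are common. Among the 10 genes ranked highest in Ad-Hif2a cells below, 9 had a window in the table and 5 of those held a core, and among the 10 ranked lowest 6 had a window and 5 held a core, against 59.6% of the 11104 tested genes with a window, any start of a gene counting. A core is a match of letters, not a bound site.

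Library totals ran from 14372589 to 18623403 counts, with the smallest in Ad-Hif2a replicate 3. This library stood apart from the others. On the main principal component, computed on log2 CPM (counts per gene scaled to a common library total, with TMM factors), which held 63.2% of the variance, it scored 77.9 against 10.6 to 43.0 for the other vector libraries and −71.1 to −68.8 for Ad-C, and on the second (17.8%) 56.5 against −35.7 to 15.7. Ad-Hif1a replicate 1 was next to it on the second component among the vector libraries, at 11.4. Mitochondrially encoded transcripts took 2.71% of counts in Ad-Hif2a replicate 3 and 2.84% in Ad-Hif1a replicate 1, against 3.56% to 5.58% in the other 4 vector libraries. Their part in the results below was not tested, and values without Ad-Hif2a replicate 3 are given beside many of the main ones. The cells had the markers of their label: all 11 osteoblast lineage markers had enough counts to be tested, with a summed level of 59608 to 61863 CPM in Ad-Hif1a cells and 52156 to 60954 in Ad-Hif2a cells.

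Hif1a was read at 1240, 1930 and 2325 CPM in the Ad-Hif1a libraries and at 575, 585 and 447 CPM in the Ad-Hif2a libraries, against 186 to 193 in Ad-C. The groups did not overlap, and every Ad-Hif2a library was also above the controls. The log2 fold change, Ad-Hif2a minus Ad-Hif1a, was −1.75 (SE 0.25). Epas1 was read at 407, 486 and 679 CPM in Ad-Hif1a cells and at 1996, 2181 and 823 CPM in Ad-Hif2a cells, against 41.9 to 48.8 in Ad-C. Each vector thus gave the highest reads of its own gene, but both genes were above the controls in all 6 libraries, and Ad-Hif2a replicate 3 lay nearer to the Ad-Hif1a libraries in Epas1 than to the other Ad-Hif2a libraries. The log2 fold change of Epas1 was 1.64 (SE 0.40) over all libraries and 2.15 (SE 0.16) without Ad-Hif2a replicate 3. The log2 ratio of Epas1 to Hif1a separated the vectors in every library, at −1.99 to −1.61 in Ad-Hif1a cells and 0.879 to 1.90 in Ad-Hif2a cells. The lowest Ad-Hif2a value was again replicate 3, and the contrast is between libraries in which reads of both genes were above Ad-C.

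**Figure D1:**
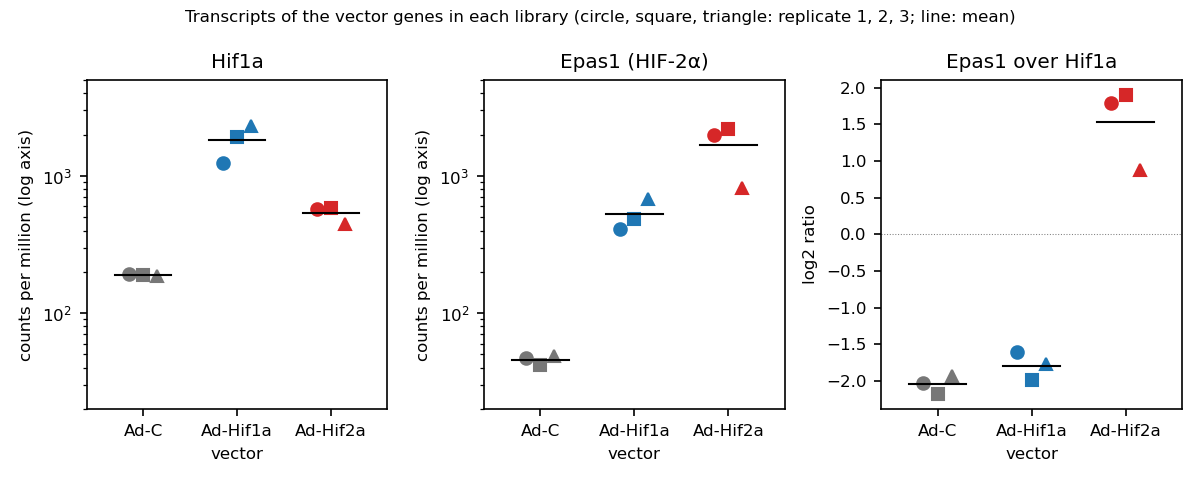
Levels of Hif1a and Epas1 (CPM, log axes) and their log2 ratio in each library, by vector; symbols are replicates and lines are group means. Epas1 in Ad-Hif2a replicate 3, at 823 CPM, sits near the 679 CPM of Ad-Hif1a replicate 3.

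No gene passed an adjusted p of 0.05 (edgeR's quasi-likelihood test with Benjamini-Hochberg adjustment), neither higher (0% of those tested) nor lower (0%) in Ad-Hif2a cells. The lowest adjusted p was 0.0819, for Egln3, followed by 0.157 for Pgf and by 0.823 for Hif1a and Mmp10, and no other gene was below 0.823. At an unadjusted p under 0.05 there were 187 genes higher (1.3%) and 151 lower (1.05%), or 154 and 197 with no composition factors in the scaling. The 338 genes were 2.35% of those tested, fewer than a threshold of 0.05 would pass with no difference. The 3 Ad-Hif2a libraries all lay above the 3 Ad-Hif1a libraries for 442 genes (3.07%) and all below for 462 (3.21%). A random order of 3 against 3 libraries would also give larger shares. Passing either criterion thus does not by itself mark a gene as different. The median log2 fold change was 0.0027 and the median SE 0.25, and for 9866 genes (68.5%) the 95% interval of the difference lay inside a 2-fold change in either direction. For the other 4547 genes a difference of 2-fold or more was within the interval, so a p above the threshold does not show that the vectors acted alike.

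DESeq2 with the same terms called 14 genes higher (0.0971%) and 5 lower (0.0347%), with 368 genes at an unadjusted p under 0.05. Without Ad-Hif2a replicate 3, edgeR called 8 higher (0.0546%) and 4 lower (0.0273%), with 1435 genes at an unadjusted p under 0.05. With no term for the replicate number, it called 2 higher (0.0139%), Egln3 and Pgf, and none lower (0%), with 516 genes at an unadjusted p under 0.05. DESeq2 with no such term, an alternative chosen after seeing the data, called 29 higher (0.201%) and 11 lower (0.0763%). With only the 6 vector libraries and no such term, edgeR called none higher (0%) and none lower (0%), with 254 genes at an unadjusted p under 0.05 and a lowest adjusted p of 0.286. DESeq2 and the fit without Ad-Hif2a replicate 3 shared 9 genes: Egln3, Pgf, Epas1, Mmp10, Cxcl2, Serpinb2 and Nos2 on the higher side, and Hif1a and Ndufa4l2 on the lower. Only DESeq2 called Cited1, Selenbp1, Cstdc4, Mfap4, U90926, Mreg and Rgs1 as higher and Pgap6, Hpgd and Myh11 as lower, whereas Lif as higher, and Ly6c1 and Mfrp as lower, were called by the fit without that library and not by DESeq2 with the same terms. Lif was also called over all 9 libraries by DESeq2 with no replicate term (1.21, adjusted p = 0.0394). Mfrp had no count in Ad-Hif2a replicates 1 and 2 but 107 counts in replicate 3 and 34 to 76 in Ad-Hif1a cells, so its call rests on leaving replicate 3 out. Cited1, Cstdc4, Mreg, Rgs1, Ly6c1 and Mfrp are named because of these calls, after their values were seen. Rgs1 was at 4.22 to 4.88 CPM in Ad-C cells, 0.57 to 1.49 in Ad-Hif1a cells and 2.91 to 6.96 in Ad-Hif2a cells. Its Ad-Hif1a libraries were thus below Ad-C, and its Ad-Hif2a libraries overlapped it.

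**Figure D2:**
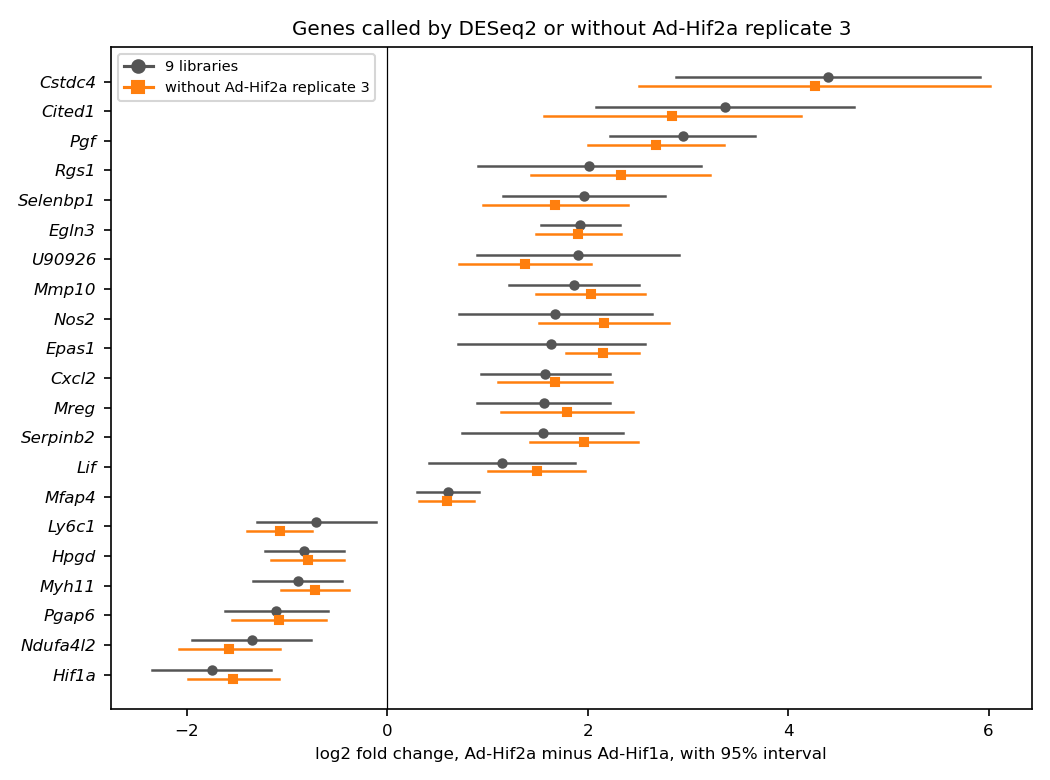
Log2 fold change (Ad-Hif2a minus Ad-Hif1a) with its 95% interval from edgeR, over 9 libraries (circles) and without Ad-Hif2a replicate 3 (squares), for the 21 genes called by DESeq2 or without that library; Mfrp, at 0 counts in a group, is not drawn. The direction of each gene is the same in both fits, and the interval of Epas1 narrows from 0.71 to 2.57 to 1.79 to 2.51.

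Egln3, the prolyl hydroxylase PHD3 that is itself a hypoxia-induced gene and acts back on HIF-α, had the lowest p of all genes. It was at 6.29, 5.23 and 4.91 CPM in Ad-Hif1a cells and at 25.2, 18.0 and 19.5 CPM in Ad-Hif2a cells, against 0.505 to 0.607 in Ad-C cells. The 3 Ad-Hif2a libraries were all well above the 3 Ad-Hif1a libraries, replicate 3 included. The log2 fold change was 1.92 (SE 0.17), and 1.91 (SE 0.19) without that library, where the adjusted p was 0.00502. Of the 17 tested members among the HIF α subunits, partners and regulators, 2 were higher (Epas1 and Egln3) and 2 lower (Hif1a and Arnt2) at an unadjusted p under 0.05. Among all genes tested, 1.3% were higher and 1.05% lower. Epas1 and Hif1a are the genes of the vectors, so their part in this count was set by the design. Arnt2, an alternative dimer partner, had a log2 fold change of −0.50 (SE 0.18, unadjusted p = 0.0256). Of the others, none of which passed, the log2 fold change was 0.04 (SE 0.20) for Egln1, 0.06 (SE 0.43) for Egln2 (−0.55, SE 0.21, without Ad-Hif2a replicate 3), −0.06 (SE 0.20) for Arnt, 0.17 (SE 0.22) for Vhl and −0.07 (SE 0.16) for Cited2.

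None of 22 genes of glycolysis and glucose uptake passed the unadjusted threshold. Their median log2 fold change was −0.05 (−0.22 without Ad-Hif2a replicate 3) and 19 of the 22 intervals lay inside a 2-fold change. Slc2a1, the glucose transporter GLUT1, was at 56.5, 49.7 and 46.3 CPM in Ad-Hif1a cells and at 62.6, 46.6 and 59.6 CPM in Ad-Hif2a cells, against 14.9 to 18.2 in Ad-C cells. Both vector groups were above the controls and overlapped, with a log2 fold change of 0.14 (SE 0.17, 95% interval −0.26 to 0.53). Pdk1, which encodes a pyruvate dehydrogenase kinase, was at 13.99 to 16.5 CPM in Ad-Hif1a cells and 10.97 to 13.1 CPM in Ad-Hif2a cells. In Ad-C cells it was at 15.3 to 20.9 CPM. The vector groups did not overlap (log2 fold change −0.33, SE 0.16), but the interval, −0.69 to 0.04, reached 0.

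Among 28 other hypoxia-induced genes the median was 0.03, with 2 higher and 1 lower at an unadjusted p under 0.05, namely Selenbp1, Car12 and Car9. The shares of all genes tested were 1.3% higher and 1.05% lower. Selenbp1, which encodes a selenium-binding methanethiol oxidase, was at 1.59, 1.05 and 0.81 CPM in Ad-Hif1a cells and at 5.48, 2.69 and 5.46 CPM in Ad-Hif2a cells, and at 1.87 to 2.15 CPM in Ad-C cells. The Ad-Hif1a libraries were thus below the controls and the Ad-Hif2a libraries above them, with a log2 fold change between the vectors of 1.96 (SE 0.34). The carbonic anhydrases Car12 and Car9, which acidify the space around hypoxic cells, lay on opposite sides. Car12 was at 1.76, 2.73 and 2.92 CPM in Ad-Hif1a cells and at 8.26, 5.43 and 4.81 CPM in Ad-Hif2a cells (log2 fold change 1.30, SE 0.33). Car9 was at 1.42, 0.93 and 1.30 CPM in Ad-Hif1a cells and at 0.41, 0.63 and 0.51 CPM in Ad-Hif2a cells (−1.25, SE 0.47), on only 16 to 25 and 7 to 11 counts per library. In Ad-C cells Car9 was at 0.44 to 1.12 CPM, which overlapped both vector groups. Neither pair of groups overlapped. The oxidoreductase Ero1a was next in rank, at 0.35 (SE 0.15).

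**Figure D3:**
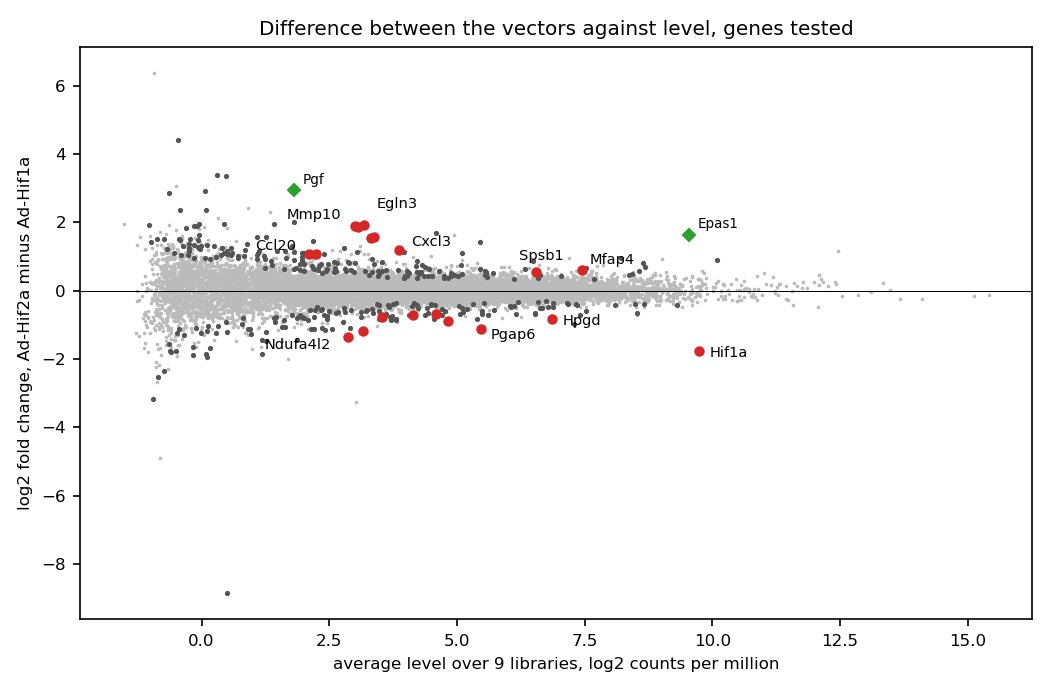
Log2 fold change between the vectors against the average level (log2 CPM over 9 libraries) of the 14413 genes tested. Dark points have an unadjusted p under 0.05, red points are 10 genes ranked highest and 9 ranked lowest, and diamonds mark Pgf and Epas1; most genes lie close to 0, and the lowest point, far from the rest, is a gene whose Ad-Hif2a libraries held no count.

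Pgf, the placental growth factor of the VEGF family, had the second lowest p. It was at 1.30, 0.87 and 1.06 CPM in Ad-Hif1a cells, close to the 0.64 to 0.79 CPM of Ad-C, and at 9.55, 5.09 and 11.1 CPM in Ad-Hif2a cells. These values rest on 15 to 23 counts per Ad-Hif1a library and 89 to 162 per Ad-Hif2a library, and Ad-Hif2a replicate 3 was the highest of all. The log2 fold change was 2.95 (SE 0.31), and 2.68 (SE 0.31, adjusted p = 0.0130) without that library. Of 23 angiogenic factors and receptors, 2 were higher and 1 lower at an unadjusted p under 0.05, with a median of 0.09. Over all genes tested, 1.3% were higher and 1.05% lower. Vegfc, a lymphatic growth factor, was at 10.99, 10.93 and 12.7 CPM in Ad-Hif1a cells and at 19.1, 16.1 and 15.1 CPM in Ad-Hif2a cells (0.53, SE 0.18). Angpt1, a ligand that stabilizes vessels, was the member on the lower side (−0.44, SE 0.16). Vegfa itself was at 47.9, 61.0 and 74.1 CPM against 118, 78.9 and 63.4 CPM, groups that overlapped through Ad-Hif2a replicate 3 (0.50, SE 0.28, and 0.79, SE 0.20, without that library).

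Among 22 tested genes described as HIF-2α targets, 6 were higher and 1 lower at an unadjusted p under 0.05, 5 lay above and 1 below without overlap, and the median was 0.26. The shares of all genes tested were 1.3% and 1.05% at that p, and 3.07% and 3.21% without overlap. Arg1, which splits arginine, had no count in Ad-C, 1, 4 and 7 counts in Ad-Hif1a cells and 110, 27 and 20 counts in Ad-Hif2a cells (3.40, SE 0.93; 4.50, SE 0.79, without Ad-Hif2a replicate 3). Nos2, the inducible nitric oxide synthase that uses the same substrate, was at 12.1, 17.5 and 17.2 CPM in Ad-Hif1a cells and at 96.2, 45.4 and 27.2 CPM in Ad-Hif2a cells, against at most 0.34 in Ad-C cells. The Ad-Hif2a libraries differed widely among themselves, yet the lowest was above every Ad-Hif1a library (1.68, SE 0.41; 2.16, SE 0.30, adjusted p = 0.0229 without Ad-Hif2a replicate 3). The gelatinase Mmp9 (1.17, SE 0.36) and the growth factor Tgfa (0.95, SE 0.33) were also above without overlap. Ccnd1, the cell cycle regulator cyclin D1, was the member on the lower side: 588, 501 and 448 CPM in Ad-Hif1a cells, 362, 400 and 391 CPM in Ad-Hif2a cells, and 977 to 1028 CPM in Ad-C cells (−0.41, SE 0.16). Epo and Pou5f1 had no count in any library.

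Of 24 extracellular proteases and inhibitors, 5 were higher and none lower at an unadjusted p under 0.05, and the same numbers lay above and below without overlap. For all genes tested the shares were 1.3% and 1.05% at that p, and 3.07% and 3.21% without overlap. Mmp10, stromelysin-2, was at 5.55, 4.48 and 5.53 CPM in Ad-Hif1a cells and at 27.6, 14.5 and 16.5 CPM in Ad-Hif2a cells, with 0 to 2 counts per Ad-C library. The log2 fold change was 1.86 (SE 0.28), and 2.03 (SE 0.25, adjusted p = 0.0132) without Ad-Hif2a replicate 3. Serpinb2, the plasminogen activator inhibitor PAI-2, was at 5.61, 5.70 and 9.94 CPM against 30.1, 18.8 and 14.3 CPM (1.55, SE 0.34; 1.96, SE 0.25, adjusted p = 0.0145 without Ad-Hif2a replicate 3), again without overlap. Mmp12, the macrophage elastase, was at 18.2, 24.8 and 26.0 CPM against 80.4, 38.9 and 35.5 CPM (1.10, SE 0.33; 1.41, SE 0.26, without that library), and the collagenase Mmp8 differed by 0.76 (SE 0.22). In bulk RNA, fewer cells of a type and less RNA per cell cannot be told apart. The summed level of 15 macrophage markers was 1632 to 1775 CPM in Ad-Hif1a cells and 1672 to 1956 in Ad-Hif2a cells, against 3779 to 4061 in Ad-C cells. None of them passed the unadjusted threshold between the vectors.

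**Figure D4:**
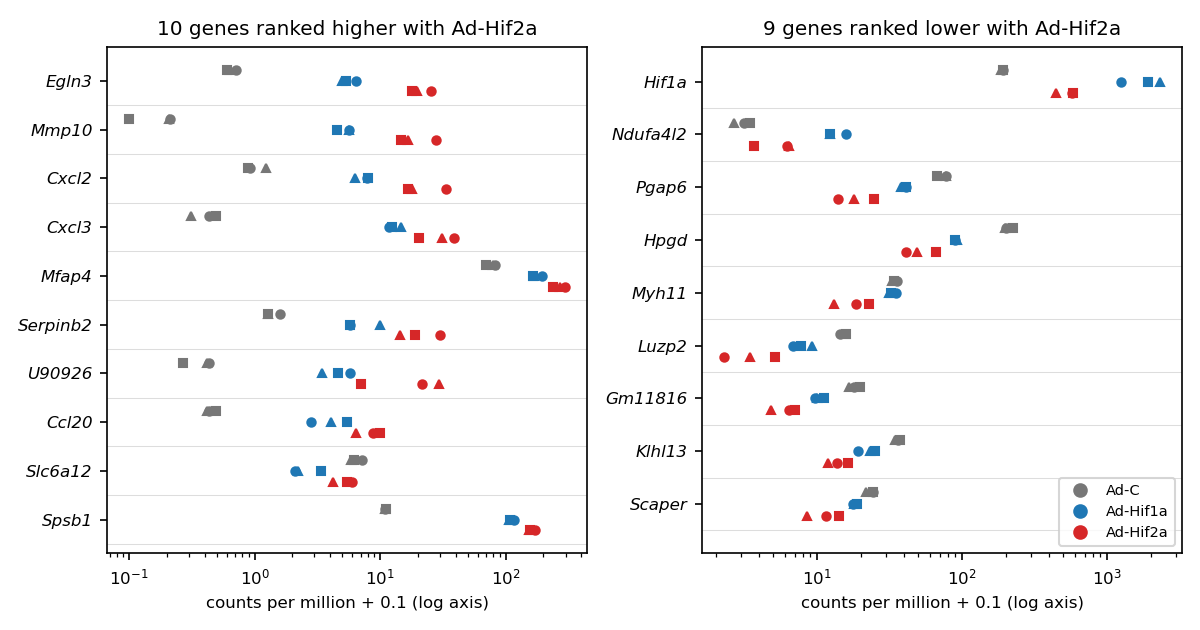
CPM plus 0.1 (log axes) in each library for 10 genes ranked highest and 9 ranked lowest in Ad-Hif2a cells; circles, squares and triangles are replicates 1, 2 and 3. For each of the 19 genes the 3 Ad-Hif2a points lie on the same side of the 3 Ad-Hif1a points.

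The ranking behind these names took genes with an average log2 CPM over 2 whose difference had the same sign between all 3 same-numbered libraries, in the order of their unadjusted p. The higher side was Egln3, Mmp10, Cxcl2, Cxcl3, Mfap4, Serpinb2, U90926, Ccl20, Slc6a12 and Spsb1. Mfap4, a matrix protein of elastic fibers, was at 196, 166 and 167 CPM in Ad-Hif1a cells and at 298, 236 and 270 CPM in Ad-Hif2a cells (0.60, SE 0.13). Spsb1, an adaptor of a ubiquitin ligase that acts on iNOS, was at 106 to 117 CPM against 153 to 170 CPM and 10.77 to 10.99 CPM in Ad-C cells (0.53, SE 0.13). Both had differences that were small but even between libraries. The transporter Slc6a12 was at 1.98 to 3.26 CPM in Ad-Hif1a cells and 4.15 to 5.84 CPM in Ad-Hif2a cells, which was closer to the 5.72 to 7.12 CPM of Ad-C (1.06, SE 0.25). U90926 varied widely between libraries, from 6.97 to 29.6 CPM in Ad-Hif2a cells (1.90, SE 0.43; 1.37, SE 0.30, without Ad-Hif2a replicate 3).

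No inflammatory gene passed the adjusted threshold. Of 35 tested cytokines, chemokines and NF-κB targets, 30 had a log2 fold change above 0, 16 were higher and none lower at an unadjusted p under 0.05, and 14 lay above without overlap and none below. The median was 0.64, against 0.0027 over all genes tested, and 0.56 without Ad-Hif2a replicate 3. Of all genes tested, 1.3% were higher and 1.05% lower at that p, and 3.07% and 3.21% lay above and below without overlap. The list was chosen with earlier results of these data known, and its genes are not independent replicates. It also shares Nos2 with the genes described as HIF-2α targets. These counts thus describe the list and are not a test of it. Cxcl2, a chemokine that attracts neutrophils, was at 7.76, 7.97 and 6.21 CPM in Ad-Hif1a cells and at 33.3, 16.6 and 18.0 CPM in Ad-Hif2a cells, against 0.785 to 1.12 in Ad-C cells (1.58, SE 0.27). Its neighbour Cxcl3 was at 11.7, 12.4 and 14.6 CPM against 39.0, 20.5 and 31.3 CPM (1.19, SE 0.25), and the lymphocyte chemokine Ccl20 was at 2.72, 5.35 and 3.98 CPM against 8.73, 9.95 and 6.34 CPM (1.07, SE 0.25). Reads of Cxcl2 and Cxcl3, which are close in sequence, may have been split between them.

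Il6, the cytokine interleukin-6, was at 29.0, 35.5 and 38.8 CPM in Ad-Hif1a cells and at 147, 64.0 and 76.98 CPM in Ad-Hif2a cells, against 0 to 0.505 CPM in Ad-C cells (1.43, SE 0.47). All Ad-Hif2a libraries were above all Ad-Hif1a libraries, and Ad-Hif2a replicate 1 was the highest. The most abundant chemokine of the list, Cxcl5, was at 1081 to 1181 CPM against 1626 to 2556 CPM (0.90, SE 0.23), and Il1b was counted 5, 6 and 13 times in Ad-Hif1a cells and 55, 22 and 37 times in Ad-Hif2a cells (2.36, SE 0.59; 2.89, SE 0.61, without Ad-Hif2a replicate 3). Csf2, which was too low to test, was counted 4, 1 and 1 times against 23, 12 and 8 times. Cxcl5, Il1b and Csf2 were chosen after their values were seen. The NF-κB subunit genes Nfkb1 (0.05, SE 0.26) and Relb (0.01, SE 0.18), also named after their values were seen, did not pass. Ptgs2, which makes prostaglandin H2, was at 55.7, 77.2 and 97.1 CPM against 148, 113 and 74.0 CPM (0.51, SE 0.31), and overlapped through Ad-Hif2a replicate 3. Without that library its log2 fold change was 0.85 (SE 0.22, unadjusted p = 0.00290). The death receptor Fas differed by 0.18 (SE 0.14), in groups that overlapped.

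Of 13 prostaglandin genes, some of them also in the inflammatory list, 1 was higher and 1 lower at an unadjusted p under 0.05. The shares of all genes tested were 1.3% and 1.05%. Hpgd, which inactivates prostaglandin E2, was at 89.6, 89.3 and 92.6 CPM in Ad-Hif1a cells and at 41.2, 65.6 and 48.4 CPM in Ad-Hif2a cells, against 197 to 223 CPM in Ad-C cells (−0.83, SE 0.17). Ptges, which makes it, was at 93.6, 77.9 and 62.3 CPM against 122, 87.1 and 162 CPM (0.64, SE 0.24; 0.35, SE 0.16, without Ad-Hif2a replicate 3). The Hpgd groups did not overlap and the Ptges groups did. Of 19 acute-phase and complement genes, 1 was higher and none lower, and Ad-Hif2a replicate 3 had the highest values of the leading members. Saa3 was at 21847 CPM there, against 4102 and 10132 CPM in the other Ad-Hif2a libraries and 3334 to 7113 CPM in Ad-Hif1a cells. Its log2 fold change was 1.15 (SE 0.57) with that library and 0.22 (SE 0.17) without it, and that of Hp, haptoglobin, was 0.81 (SE 0.31) and 0.31 (SE 0.14).

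All 34 interferon-stimulated genes had a log2 fold change above 0, from 0.0034 to 1.31, with a median of 0.43 (0.38 without Ad-Hif2a replicate 3), against 50.5% of all genes tested. Only 1 of them passed an unadjusted p of 0.05, and only 1 lay above without overlap. Over all genes tested, 1.3% were higher at that p and 3.07% lay above without overlap. Their summed level was 2413 to 2759 CPM in Ad-Hif1a cells and 2290 to 4945 CPM in Ad-Hif2a cells. The Ad-Hif2a libraries thus spanned the whole range of the Ad-Hif1a libraries, and genes are not independent replicates. In the opposite direction, 20 of 22 genes of cholesterol and fatty acid synthesis were below 0, with a median of −0.23 (−0.16 without Ad-Hif2a replicate 3), none at an unadjusted p under 0.05 and 21 intervals inside a 2-fold change.

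**Figure D5:**
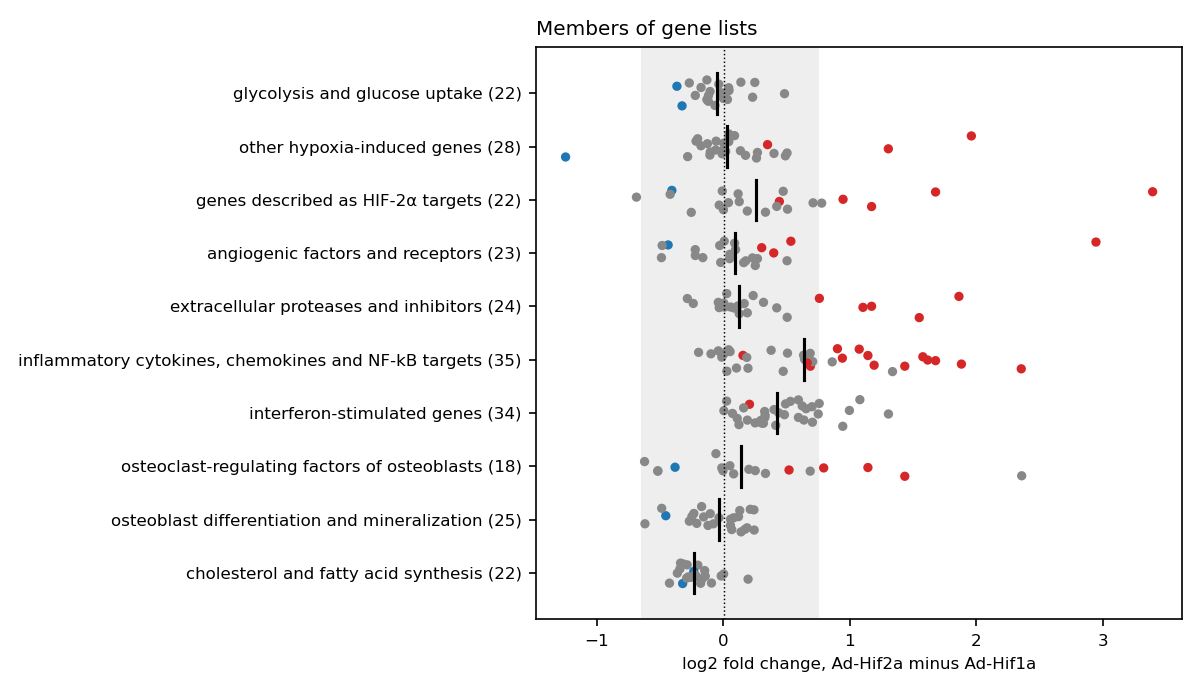
Log2 fold change of each tested member of 10 gene lists (number in brackets), with the median as a bar; the shaded band holds 95% of all genes tested, from −0.65 to 0.74. Members whose Ad-Hif2a libraries lay all above (red) or all below (blue) the Ad-Hif1a libraries are most frequent in the inflammatory list, at 14 of 35. The lists were chosen with earlier results of these data known.

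Factors by which osteoblasts act on osteoclasts gave 5 members higher and 1 lower of 18 at an unadjusted p under 0.05, with a median of 0.14. Over all genes tested the shares were 1.3% and 1.05%. Lif, named next, is also in the inflammatory list, so the counts of these lists are not independent. The higher members included Lif, at 11.2, 13.4 and 15.2 CPM in Ad-Hif1a cells and at 45.5, 27.2 and 18.9 CPM in Ad-Hif2a cells, and Clcf1, at 3.40, 3.02 and 4.22 CPM against 5.48, 5.37 and 7.72 CPM. Both are cytokines of the interleukin-6 family, and neither overlapped between the vectors (1.14, SE 0.31, and 0.79, SE 0.22). Lif was called without Ad-Hif2a replicate 3 (1.49, SE 0.22, adjusted p = 0.0379). RANKL itself did not pass: Tnfsf11 was at 30.0, 35.8 and 38.1 CPM in Ad-Hif1a cells and at 45.8, 46.4 and 36.8 CPM in Ad-Hif2a cells, against 0.83 to 1.82 CPM in Ad-C cells (0.33, SE 0.25, 95% interval −0.25 to 0.91). Its groups overlapped through Ad-Hif2a replicate 3, without which the log2 fold change was 0.56 (SE 0.17, unadjusted p = 0.0076). Tnfrsf11b, which encodes OPG, was at 45.3, 71.2 and 99.0 CPM against 57.8, 67.9 and 26.8 CPM, with the lowest value in Ad-Hif2a replicate 3 (−0.52, SE 0.40; −0.035, SE 0.23, without that library).

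The log2 ratio of Tnfsf11 to Tnfrsf11b was −0.59, −0.99 and −1.38 in Ad-Hif1a cells and −0.34, −0.55 and 0.455 in Ad-Hif2a cells, and −6.13 to −4.93 in Ad-C cells. The 3 Ad-Hif2a values were above the 3 Ad-Hif1a values, but replicates 1 and 2 of Ad-Hif2a were only slightly above Ad-Hif1a replicate 1. The means differed by 0.84, from −0.99 ± 0.39 (SD, n = 3) to −0.14 ± 0.53, with p = 0.10 in a two-sided exact permutation test, which is the smallest p that 3 against 3 allows. Twist2, a bHLH repressor of osteoblast maturation, was at 4.82, 3.43 and 3.29 CPM against 6.19, 4.63 and 9.61 CPM and at 0.50 to 0.64 CPM in Ad-C cells (0.78, SE 0.30, overlapping; 0.44, SE 0.26, without Ad-Hif2a replicate 3). Twist1 differed by 0.21 (SE 0.28), and by 0.52 (SE 0.19) without that library.

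The osteoblast program gave no gene at an unadjusted p under 0.05 in 25 tested, with a median of −0.04 and 19 intervals inside a 2-fold change. Runx2, the transcription factor that starts the lineage, was at 42.9, 48.5 and 60.1 CPM in Ad-Hif1a cells and at 45.9, 56.1 and 29.9 CPM in Ad-Hif2a cells, both below the 83.8 to 97.3 CPM of Ad-C (−0.21, SE 0.26; 0.10, SE 0.16, without Ad-Hif2a replicate 3). Alkaline phosphatase, Alpl, was at 26.9, 24.4 and 24.5 CPM against 27.8, 34.0 and 18.6 CPM (0.07, SE 0.22). In both genes the lowest vector library was Ad-Hif2a replicate 3, and the groups overlapped. Sp7 (0.12, SE 0.20), Fgfr2 (−0.17, SE 0.16), and Fgfr3 (0.19, SE 0.24), and outside that list Bmp2 (−0.17, SE 0.29) and the adipocyte regulator Pparg (0.35, SE 0.34), also overlapped. Without Ad-Hif2a replicate 3, Bmp2 was at 0.15 (SE 0.21) and Pparg at 0.67 (SE 0.31) on this scale. The osteocalcin genes Bglap (0.14, SE 0.44) and Bglap2 (0.24, SE 0.61), whose reads can be shared between near-identical copies, were at 8 to 52 counts per vector library, and the interval of Bglap2 reached past 2-fold in both directions. Without Ad-Hif2a replicate 3 they were −0.28 (SE 0.44) and −0.64 (SE 0.38). Dlx5, a homeobox factor of early osteoblasts, had the lowest p of the list, at 13.98 to 14.3 CPM against 8.01 to 13.4 CPM (−0.46, SE 0.21).

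Of all genes tested, 1.3% were higher and 1.05% lower at an unadjusted p under 0.05. Of 33 BMP and TGF-β genes, 2 were higher and 1 lower at that threshold. Nog, which encodes the BMP antagonist noggin, was at 4.53, 4.30 and 3.91 CPM in Ad-Hif1a cells and at 13.6, 5.60 and 9.25 CPM in Ad-Hif2a cells (1.07, SE 0.33). The ligand Gdf10 was at 76.4, 65.1 and 65.5 CPM against 33.1, 47.0 and 52.7 CPM (−0.66, SE 0.19). Neither gene overlapped between the vectors. The Wnt list had 2 lower and none higher of 28, led by Rspo2, an enhancer of Wnt signaling (−0.69, SE 0.20). In that list 6 genes lay below and 1 above without overlap, against 3.21% and 3.07% of all genes tested. Of 29 immediate early and ERK1/2 feedback genes 5 were higher and none lower, among them Egr2 (1.10, SE 0.28), Fosl1 (0.72, SE 0.25) and Ier3 (0.56, SE 0.17). Fosl1 and Ier3 were above Ad-C with both vectors. Egr2 was at 3.53 to 5.19 CPM in Ad-C cells, 1.81 to 2.92 in Ad-Hif1a cells and 4.23 to 6.25 in Ad-Hif2a cells. Atf3, a stress-induced factor, was the only gene past that threshold among 21 of the unfolded protein and integrated stress responses (0.81, SE 0.23). It was at 7.22 to 8.39 CPM in Ad-C cells, 4.59 to 5.28 in Ad-Hif1a cells and 7.37 to 12.3 in Ad-Hif2a cells. For Egr2 and Atf3 the Ad-Hif1a libraries were thus below Ad-C, and the Ad-Hif2a libraries overlapped it.

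The lower side of the ranking held Hif1a, Ndufa4l2, Pgap6, Hpgd, Myh11, Luzp2, Gm11816, Klhl13 and Scaper. Ndufa4l2, a hypoxia-induced mitochondrial protein that lowers respiration, was at 15.7, 12.3 and 12.2 CPM in Ad-Hif1a cells and at 6.07, 3.54 and 6.26 CPM in Ad-Hif2a cells, against 2.57 to 3.36 CPM in Ad-C cells. Its log2 fold change was −1.35 (SE 0.25), and −1.58 (SE 0.23, adjusted p = 0.0379) without Ad-Hif2a replicate 3. It was the only one of the 26 listed nuclear-encoded respiratory genes with an unadjusted p under 0.05. For 6 of the others the order ran from Ad-C through Ad-Hif1a to Ad-Hif2a. Pgap6 was at 66.9 to 77.2 CPM in Ad-C cells, 41.2, 40.7 and 37.5 CPM in Ad-Hif1a cells and 13.7, 24.5 and 17.8 CPM in Ad-Hif2a cells (−1.11, SE 0.22), and Luzp2 at 14.3 to 15.7, 6.68 to 9.13 and 2.18 to 5.03 CPM (−1.18, SE 0.26). Myh11, the smooth muscle myosin heavy chain, was at 35.1, 32.4 and 31.2 CPM in Ad-Hif1a cells, like the 32.6 to 35.7 CPM of Ad-C, and at 18.3, 22.6 and 12.9 CPM in Ad-Hif2a cells (−0.89, SE 0.19). Of 10 tested smooth muscle and pericyte markers, Myh11 included, 1 was higher and 2 lower at an unadjusted p under 0.05. The shares over all genes tested were 1.3% and 1.05%. The log2 fold changes of these markers ran from −0.89 to 0.84, with a median of −0.09. The summed level of these smooth muscle and pericyte markers was 3311 to 4675 CPM in Ad-Hif1a cells and 3233 to 4513 CPM in Ad-Hif2a cells. The chondrocyte factor Sox9 (−0.47, SE 0.15) and the matrix protein Npnt (−0.71, SE 0.24) were further genes of the lists that lay below without overlap. Npnt was far below Ad-C with both vectors, at 123 to 131 CPM in Ad-C cells and 10.6 to 12.6 in Ad-Hif1a cells. In Ad-Hif2a cells it was at 4.81 to 9.32 CPM. Without Ad-Hif2a replicate 3 its log2 fold change between the vectors was −0.44 (SE 0.16).

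Markers of other cell types ran at unlike levels. The summed level was 244 to 261 CPM for osteoclast markers in Ad-Hif1a cells and 258 to 260 CPM in Ad-Hif2a cells. For chondrocyte markers it was 175 to 191 against 133 to 171 CPM, without overlap, and 298 to 321 CPM in Ad-C cells. It was 14.8 to 19.8 against 11.3 to 18.0 CPM for skeletal muscle markers. For neural and glial markers it was 34.6 to 50.4 against 32.6 to 62.3 CPM. The summed level was 17.8 to 19.5 CPM for endothelial markers in Ad-Hif1a cells and 16.0 to 22.3 CPM in Ad-Hif2a cells, and 5.16 to 7.53 against 7.55 to 13.6 CPM for neutrophil markers, of which 2 of 9 were tested. No erythroid marker had enough counts to be tested.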

How the data were processed

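Total RNA of mouse pre-osteoblasts, 3 libraries per virus, was sequenced after CORALL library preparation. The deposited values are counts per gene symbol, not normalized by the authors. Their processing notes name bcl2fastq 2.20.0.422, fastp, STAR, Salmon and GRCm39, with no roles. Totals were 14372589 to 18623403 counts, and a value of few counts has a large counting error. Genes passing filterByExpr were scaled by TMM and fitted in edgeR 4.0.16 (R 4.3.3) with the robust quasi-likelihood model on all 9 libraries, with the vector and, after the study's paired test, the replicate number as terms, and adjusted by Benjamini-Hochberg with a threshold of 0.05. SEs are the fold change over the root of F. Unadjusted p-values are from the same fit. Levels are TMM-scaled CPM. The alternatives were DESeq2 1.42.0, other scalings, filters and terms, and left-out libraries. Genes named are Hif1a, Epas1 and genes the study names, the 10 ranked on each side, and up to 4 members per list with the lowest unadjusted p. The 42 lists hold 758 symbols, 678 of them tested (14 matched under another name). Members and lists were chosen with earlier results of these data known. The scripts were tested on simulated counts. A few results are not reported here. Gene positions are not given on GRCm39; promoters are RefSeq GRCm38.p6.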

Additional observations from a re-analysis of the deposited data

How the results depend on the processing

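The count of called genes depended on the tool and on 1 library. With Ad-Hif2a higher, it was 0 in the edgeR fit, 14 with DESeq2, 2 with no filter, and 0 to 8 with each of the 9 libraries left out in turn; with Ad-Hif2a lower, it was 0, 5, 0 and 0 to 4. Only leaving out Ad-Hif2a replicate 3 gave any call among the 9. Called genes of the lists numbered 0 in the edgeR fit, 12 with DESeq2, 2 with no filter and 0 to 10 with a library left out. Leaving out the pair of Ad-Hif2a replicate 3 and Ad-Hif1a replicate 1 gave 5 higher and 6 lower, 7 of them listed. RLE, upper-quartile or no composition factors, a minimum of 10 counts in every library, a fit that was not robust and a fit of the 6 vector libraries gave no call (341, 337, 351, 262, 349 and 117 genes at an unadjusted p under 0.05). The share of genes with an interval inside a 2-fold change was 42.0% with no filter, which adds genes of few counts, and 48.0% to 78.4% in the other fits with the replicate term. The cause of these differences was not tested.

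The replicate numbers gave no sign of a pairing of the vector libraries. The deviations from the group means of same-numbered Ad-Hif1a and Ad-Hif2a libraries correlated at −0.31, 0.10 and −0.57. These 3 values depend on each other, and Ad-Hif2a replicate 3 stood apart, so they cannot exclude a pairing. With no replicate block, 2 genes were higher and none lower, both of them listed. With no block and the pair of Ad-Hif2a replicate 3 and Ad-Hif1a replicate 1 left out there were 5 higher and 3 lower (6 listed), and, chosen after seeing the data, 4 higher and 2 lower (5 listed) with no block and only Ad-Hif2a replicate 3 left out, and 29 higher and 11 lower (20 listed) with DESeq2 and no block. The 6 vector libraries with no block gave no call.

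Of 82 named genes, 69 kept their direction in all 23 alternatives in which they had a value. Many were named for a low p, the same sign in all 3 pairs or a call in an alternative. The alternatives also reuse the same libraries. A kept direction was thus partly set by how the genes were picked, and the share over all genes is not given. The remaining 13 named genes had log2 fold changes near 0. With a library left out in turn, they ran from −0.55 to 0.45 for Egln2, −0.10 to 0.34 for Vhl, −0.23 to 0.16 for Arnt, −0.48 to 0.10 for Runx2, −0.28 to 0.53 for Bglap, −0.64 to 0.76 for Bglap2, −0.44 to 0.15 for Bmp2, −0.046 to 0.30 for Sp7, −0.18 to 0.076 for Cited2, −0.13 to 0.24 for Egln1, −0.085 to 0.53 for Twist1 and −0.18 to 0.30 for Alpl. Leaving out the pair of Ad-Hif2a replicate 3 and Ad-Hif1a replicate 1 gave −0.22 for Egln2, −0.036 for Vhl, 0.0052 for Arnt, 0.0051 for Runx2, −0.065 for Bglap, −0.24 for Bglap2 and 0.052 for Bmp2; with no block as well, −0.15 for Egln2, −0.075 for Sp7, −0.19 for Bglap, −0.048 for Bglap2, −0.0046 for Fgfr3 and 0.018 for Bmp2; and leaving out only Ad-Hif2a replicate 3 with no block, −0.49 for Egln2, −0.039 for Vhl, 0.090 for Arnt, 0.035 for Cited2, 0.012 for Runx2, −0.095 for Sp7, −0.36 for Bglap, −0.53 for Bglap2 and 0.12 for Bmp2.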
